A study of Mus musculus with 2 samples.

Results

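Cycling T cells are lymphocytes that carry the T cell receptor complex and, at the moment of capture, the transcripts of a dividing cell. They were taken here from 2 droplet libraries of leukocytes from mouse aorta described as positive for CD45, the surface antigen that white blood cells share. By the labels, 1 library came from a group treated with ZnDPA@siIRF5, whose name points to an siRNA aimed at Irf5, a transcription factor of the interferon regulatory family; it is called the library labelled siIRF5 here. The other came from controls. The study is about lesional macrophages in atherosclerosis; genotype, diet, age, the number of animals pooled, the dose and what the control group received are not given in the sources used here. A member had at least 500 detected genes, at most 15% mitochondrial UMIs, at least 2 UMIs of the CD3 genes Cd3d, Cd3e and Cd3g, and at least 2 UMIs of Mki67, Top2a and Birc5. A UMI (unique molecular identifier) stands for 1 captured transcript molecule. Members also had no Csf1r or Cd79a UMI, at most 1 UMI of the C1q genes and at most 5 of Jchain and Mzb1, which keeps out most macrophages, B cells and plasma cells. The rule found 160 cells among 12466 kept barcodes of the library labelled siIRF5 and 199 among 12038 of the library labelled control, 359 of 24504 in all. None of the 45 barcodes that occur in both libraries was a member. With 1 library per group no difference between them could be tested, and the intervals below are 95% intervals that cover counting error only.

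A T cell that meets its antigen with costimulation leaves quiescence, grows, and divides several times. It loads MCM helicases at replication origins in G1, copies its DNA in S phase with PCNA-clamped polymerases and a supply of nucleotides and histones, and divides in M phase under the control of cyclin-dependent kinase 1, polo-like kinase and the spindle checkpoint. Mki67 encodes the Ki-67 protein of the mitotic chromosome surface, Top2a the topoisomerase that untangles sister chromatids, and Birc5 (survivin) a subunit of the chromosomal passenger complex. In atherosclerotic arteries T cells of the CD4, CD8, regulatory and gamma delta lineages occur beside macrophages, and some of them divide locally.

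The siRNA target Irf5 had 24 UMIs in members of each library, which is 13.8 CPM (the UMIs of a gene scaled by all UMIs of the cells summed; 8.83 to 20.5) in the library labelled siIRF5 and 9.34 CPM (5.98 to 13.9) in that labelled control. Irf5 was thus not lower in members of the library labelled siIRF5, and it is known mainly from myeloid and B cells, so these values do not check the labels. CPM is not divided by gene length, so levels are compared between libraries and cell sets and not between genes.

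The cells carried T cell transcripts. The 11 genes of the T cell marker list summed to 5474 CPM in the library labelled siIRF5 and 5218 CPM in the library labelled control. The same genes gave 63.7 and 79.2 CPM in cells that passed the Mki67, Top2a and Birc5 threshold with 0 CD3 UMIs. The list holds Cd3d, Cd3e and Cd3g, on which members and comparison cells were chosen. Part of this gap was therefore fixed by the choice of cells. Trac, the constant segment of the T cell receptor alpha chain, was seen in 129 of 160 members (80.6%) of the library labelled siIRF5 and in 181 of 199 (91.0%) of the library labelled control. Gzmb, the cytotoxic protease granzyme B and the remaining marker given for these cells, was seen in 69 of 160 members (43.1%) of the library labelled siIRF5 and in 76 of 199 (38.2%) of the library labelled control. In cells with at least 2 Cd79a UMIs and 0 CD3 UMIs, taken as B cells, Gzmb was seen in 1.40% and 1.12%. Gzmb thus lay above its background in B cells and was seen in fewer members than Trac. The median member held 9416 UMIs in the library labelled siIRF5 and 11127 in the library labelled control, against 6313 and 7878 UMIs in those B cells. Non-cycling T cells, those with 0 UMIs of the Mki67, Top2a and Birc5 group, were 2204 and 3275 in number and held medians of 4277.5 and 3755 UMIs.

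Some members carried markers of another stage or lineage. Transcripts of Rag1, Dntt and Arpp21, which are characteristic of developing thymocytes, reached at least 2 UMIs (with Rag2 and Ptcra in the sum) in 15 of 160 members of the library labelled siIRF5 (9.38%, 5.34 to 14.99%) and in 6 of 199 of the library labelled control (3.02%, 1.11 to 6.45%). Among non-cycling T cells 20 of 2204 (0.907%) and 5 of 3275 (0.153%) did so. Of these members, 7 of 15 in the library labelled siIRF5 and 1 of 6 in the library labelled control carried Cd4 and Cd8 UMIs together. The 15 cells held 19 Trac UMIs against 428 of Trbc2, the beta chain constant segment, and Ptcra, the pre-T alpha chain, was at 0 in the members of both libraries. Dntt had 71 UMIs in 15 members of the library labelled siIRF5 and 61 UMIs in 7 members of the library labelled control. At least 10 UMIs of a 9-gene neutrophil list were found in 8 members of the library labelled siIRF5 and 7 of the library labelled control, and that list summed to 2312 and 5983 CPM over all members, against 3994 and 3408 CPM in non-cycling T cells. Plasma cell transcripts, mainly the immunoglobulin light chain gene Igkc, summed to 638 CPM in members of the library labelled siIRF5 and 1740 CPM in members of the library labelled control, and to 847 and 2881 CPM in non-cycling T cells. With a B cell, macrophage, dendritic cell, fibroblast, mast cell and vessel wall list added, 27 of 160 members (16.9%, 11.4 to 23.6%) and 16 of 199 (8.04%, 4.67 to 12.7%) carried other-lineage or thymocyte markers. Values without these cells are given where they change a result, and their part in the other results was not tested. 

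The proliferation sum was exactly 2 UMIs in 21 members of the library labelled siIRF5 and 23 of the library labelled control, while 122 and 192 T cells had exactly 1 and were left out. At least 5 UMIs were found in 118 of 160 and 168 of 199 members. The other 9 genes of the proliferation list, which the rule did not use, summed to 10256 and 10473 CPM in members with 5 or more, to 2304 and 2269 CPM in those with 2, to 1063 and 1031 CPM in T cells with 1, and to 651 and 660 CPM in T cells with 0. Members at the threshold thus had a lower level of independent cycle genes than the bulk of the members. At the CD3 threshold, 1 member of the library labelled siIRF5 and 2 of the library labelled control had exactly 2 CD3 UMIs, against 9 and 11 cells with 1.

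Cycling T cells made up 1.28% of kept leukocytes (1.09 to 1.497%) in the library labelled siIRF5 and 1.65% (1.43 to 1.90%) in the library labelled control. T cells as a whole were 19.9% of leukocytes in the library labelled siIRF5 and 30.5% in the library labelled control. Within T cells the order was the other way round, with 6.44% cycling (5.50 to 7.47%) in the library labelled siIRF5 and 5.43% (4.72 to 6.21%) in the library labelled control. When every cell was thinned to 3000 UMIs, 116 of 2053 T cells (5.65%, 4.69 to 6.74%) and 173 of 2713 (6.38%, 5.49 to 7.36%) were cycling. The thinning left out 466 and 940 T cells that were shallower. Among T cells with at least 3000 UMIs and no thinning, 157 of 2020 (7.77%, 6.64 to 9.03%) and 197 of 2726 (7.23%, 6.28 to 8.26%) were cycling. The direction within T cells thus turned with thinning and not with leaving out shallower cells alone, the intervals overlapped in each case, and no difference in the cycling share of T cells was detectable at this depth.

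Members were divided by receptor and coreceptor transcripts: regulatory cells had a Foxp3 UMI, CD8 cells a Cd8a or Cd8b1 UMI and no Cd4, CD4 cells the reverse, and gamma delta cells at least 2 UMIs of Trdc and the Tcrg-C genes with neither coreceptor. CD8 cells were the largest group, with 65 of 160 members (40.6%, 32.9 to 48.7%) in the library labelled siIRF5 and 80 of 199 (40.2%, 33.3 to 47.4%) in the library labelled control. Gamma delta cells were 32 members (20%, 14.1 to 27.0%) and 30 members (15.1%, 10.4 to 20.8%). CD4 cells were 22 members (13.8%, 8.82 to 20.1%) in the library labelled siIRF5 and 45 (22.6%, 16.998 to 29.1%) in the library labelled control. Regulatory cells were 16 members (10.0%, 5.82 to 15.7%) and 14 members (7.04%, 3.90 to 11.5%). The intervals of the libraries overlapped for each of these 4 subsets. A further 7 and 6 members carried Cd4 and Cd8 UMIs together, and 18 and 24 carried no assigning transcript. After thinning, CD4 cells were 9 of 116 members (7.76%) and 14 of 173 (8.09%).

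**Figure D1:**
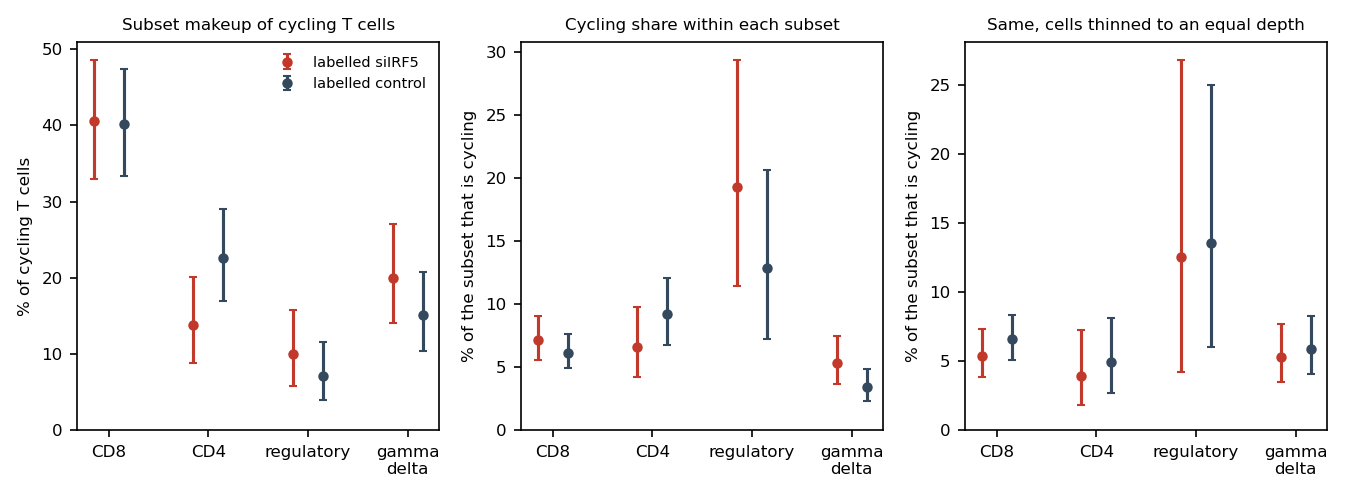
Cycling T cells by subset. The left panel gives the percentage of cycling T cells in each subset, the middle panel the percentage of each subset that was cycling, and the right panel the same after every cell was thinned to 3000 UMIs; red points are the library labelled siIRF5, dark points the library labelled control, and bars are exact 95% binomial intervals. Among the regulatory, CD8, CD4 and gamma delta subsets, regulatory cells had the highest cycling share, at 19.3% and 12.8% without thinning and 12.5% and 13.6% with it.

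Among the regulatory, CD8, CD4 and gamma delta subsets, regulatory cells were most often in cycle. Cells with Cd4 and Cd8 UMIs together gave 7 of 56 (12.5%, 5.18 to 24.1%) in the library labelled siIRF5 and 6 of 30 (20%, 7.71 to 38.6%) in the library labelled control. In the library labelled siIRF5 16 of 83 regulatory cells were cycling (19.3%, 11.4 to 29.4%), and in the library labelled control 14 of 109 (12.8%, 7.203 to 20.6%). CD8 cells gave 65 of 909 (7.15%, 5.56 to 9.02%) and 80 of 1301 (6.15%, 4.91 to 7.59%). CD4 cells gave 22 of 334 (6.59%, 4.17 to 9.80%) and 45 of 490 (9.18%, 6.78 to 12.1%). Gamma delta cells gave 32 of 601 (5.32%, 3.67 to 7.43%) and 30 of 873 (3.44%, 2.33 to 4.87%). The regulatory share lay above that of gamma delta cells without overlap of the intervals in each library, and above that of CD8 cells likewise in the library labelled siIRF5. When cells were thinned to equal depth the regulatory share was 5 of 40 (12.5%, 4.19 to 26.8%) and 8 of 59 (13.6%, 6.04 to 25.0%), with that of CD8 cells at 5.37% (3.81 to 7.33%) and 6.57% (5.10 to 8.29%), and the intervals of these subsets then overlapped.

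The replication and division programme was far higher in cycling than in non-cycling T cells of the same library, beyond the 3 genes of the rule. Ratios below are log2 of the CPM in members over the CPM in non-cycling T cells, and a gene counts as changed past 1.5-fold, a log2 ratio of 0.58. Over all genes with at least 20 UMIs in the members of both libraries together, 24.1% were at least 1.5-fold higher and 12% at least 1.5-fold lower in members of the library labelled siIRF5, and 23.7% and 17.5% in those of the library labelled control. The rule fixes Mki67, Top2a and Birc5 at 0 in non-cycling cells, so their ratios are no result. Since the members were chosen by genes of this programme, the ratios of other cycle genes are given as a description.

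Of 34 spindle, kinetochore and cytokinesis genes, 34 were past 1.5-fold higher in each library, with median log2 ratios of 5.52 and 5.25, against 0.10 and 0.03 over all genes tested. Cenpf, a kinetochore protein that builds up in G2, had 79.8 CPM in cycling and 0.19 CPM in non-cycling T cells of the library labelled siIRF5, and 61.8 and 0.0722 CPM in those of the library labelled control. Ube2c, the ubiquitin-conjugating enzyme that serves the anaphase-promoting complex, had 437 against 1.33 CPM and 417 against 3.25 CPM. Cenpf and Ube2c were thus close to 0 in non-cycling T cells. All 20 G2/M kinases and cyclins were past 1.5-fold higher, with medians of 5.25 and 5.39. Ccna2, the cyclin of S phase and G2, had 161 CPM in cycling and 0.19 CPM in non-cycling cells of the library labelled siIRF5, and 225 and 0.722 CPM in those of the library labelled control. The mitotic kinases Bub1, of the spindle checkpoint, and Nek2, of the centrosome, had log2 ratios of 8.50 and 7.21, and of 7.84 and 8.24.

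Genes that license and copy DNA had smaller ratios. The 18 licensing and origin genes had medians of 2.75 and 2.73, with 17 past 1.5-fold higher in each library. Cdc6, the loader of MCM helicases, had 61.4 against 0.952 CPM in the library labelled siIRF5 and 52.9 against 0.722 CPM in the library labelled control. The 24 replication fork genes had medians of 2.98 and 2.82, all past 1.5-fold. Clspn (claspin), which links the fork to the checkpoint kinase Chk1, had 114 against 1.14 CPM and 126 against 2.31 CPM. The 18 nucleotide synthesis genes had medians of 1.75 and 1.59, led by Rrm2, the S phase subunit of ribonucleotide reductase, with 232 against 2.57 CPM and 305 against 4.99 CPM. The 18 histone genes measured had medians of 3.88 and 4.20. Transcripts of replication-dependent histones mostly lack a poly(A) tail and come from near-identical copies, so their counts are uncertain and may be split between copies. Of 18 DNA repair genes, 17 were past 1.5-fold higher in each library, with medians of 3.24 and 3.20.

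E2F factors, which act on the genes of S phase entry, were higher in members. E2f8 and E2f7, the atypical repressor members, had log2 ratios of 6.29 and 6.57, and of 6.38 and 6.07. E2f1 and E2f2, the activators, had 3.77 and 3.50, and 4.77 and 4.65. Among brakes on the cycle the direction was mixed, with 4 of 18 genes past 1.5-fold higher and 7 past 1.5-fold lower in each library. Over all genes 24.1% and 23.7% were higher and 12% and 17.5% lower to that extent. The count of higher genes was thus near the share over all genes. Cdkn2c, the p18 inhibitor of CDK4 and CDK6, was higher in members, with 91.3 against 17.3 CPM in the library labelled siIRF5 and 83.6 against 16.6 CPM in the library labelled control. Btg1 and Txnip, which are linked to quiescence, were lower, with log2 ratios of -1.19 and -1.59, and of -1.11 and -1.38.

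**Figure D2:**
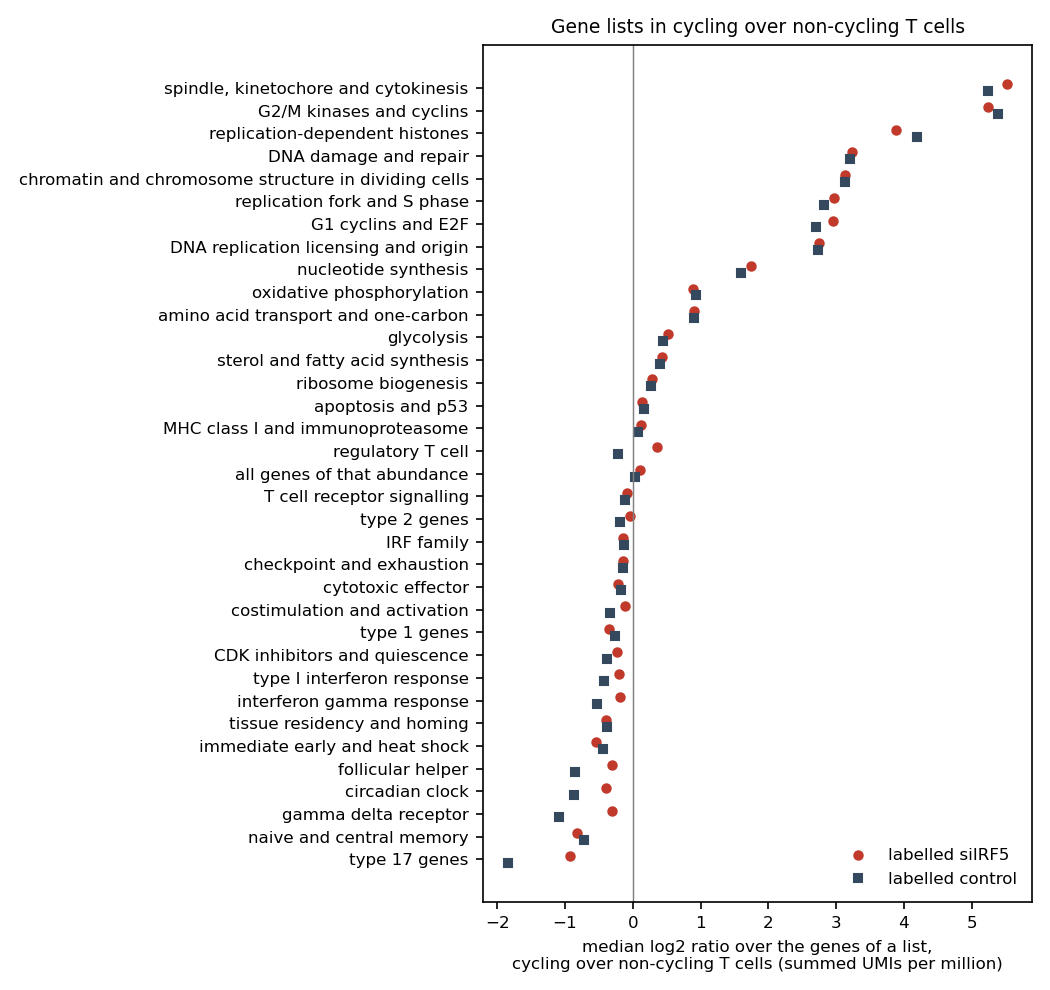
Gene lists in cycling over non-cycling T cells. Each row is a gene list and the x axis is the median over its genes of the log2 ratio of CPM in cycling over non-cycling T cells of 1 library; red circles are the library labelled siIRF5 and dark squares the library labelled control. Division and replication lists stand between 1.59 and 5.52 in both libraries, metabolic lists between 0.26 and 0.93, and naive and type 17 lists below 0.

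Metabolic genes had smaller ratios. The 19 oxidative phosphorylation genes had medians of 0.88 and 0.93, with 15 and 16 of them past 1.5-fold higher. Atp5b, the catalytic beta subunit of ATP synthase, had 485 against 230 CPM in the library labelled siIRF5 and 513 against 219 CPM in the library labelled control. Serine and one-carbon enzymes stood out among 13 amino acid genes, with Psat1 at log2 ratios of 2.44 and 2.71 and Phgdh at 2.19 and 2.34. These enzymes make serine from a glycolytic intermediate. Glycolysis genes had medians of 0.53 and 0.45, with Tpi1 at 1.87 and 2.18, Gapdh at 1.28 and 1.45 and Pgk1 at 1.28 and 1.43, while 2 and 1 of the 17 genes were past 1.5-fold lower. Ribosome biogenesis genes had medians of 0.29 and 0.26. Of the sterol and fatty acid genes, Fdps and Idi1 of the isoprenoid pathway had log2 ratios of 1.72 and 1.53, and of 2.18 and 1.19.

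Genes of resting T cells were lower in members. Of 15 naive and central memory genes, 9 in the library labelled siIRF5 and 8 in the library labelled control were past 1.5-fold lower, and 0 were past 1.5-fold higher. Over all genes 12% and 17.5% were lower and 24.1% and 23.7% higher to that extent. Il7r, the receptor for the survival cytokine interleukin 7, had 178 against 640 CPM and 158 against 715 CPM. Satb1, a chromatin organiser of naive T cells, had 366 against 1376 CPM and 397 against 1570 CPM. Bcl2, which restrains apoptosis, had 126 against 467 CPM and 78.2 against 379 CPM. Yes1, a Src family kinase, had 34.4 against 251 CPM and 49.4 against 289 CPM. Of the T cell receptor signalling list 0 of 20 genes were higher and 3 and 2 were lower, with medians of -0.08 and -0.11. The counts of lower genes in this list were near the shares over all genes. Psmb9, an immunoproteasome subunit, ran against the interferon gamma list it belongs to, with log2 ratios of 1.22 and 1.55 beside list medians of -0.19 and -0.53.

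Type 17 genes were lower in members of each library, with medians of -0.92 and -1.84 and 8 and 11 of 11 genes past 1.5-fold lower. Over all genes 12% and 17.5% were lower to that extent. Gamma delta cells were 20% and 15.1% of members and 25.0% and 24.6% of non-cycling T cells. The part of this difference in makeup in the type 17 medians was not tested. Il23r, the interleukin 23 receptor, had 62.0 against 170 CPM in the library labelled siIRF5 and 47.1 against 199 CPM in the library labelled control. Cxcr6, a receptor for tissue retention, had 143 against 323 CPM and 84.4 against 336 CPM. Effector genes went in different directions. Gzma and Gzmb were higher in members, with log2 ratios of 1.83 and 2.91, and of 1.64 and 2.21, while Ccl5, a chemokine of effector cells, was lower, with -1.24 and -1.29.

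Promoter sequence was not used by the rule. The windows below are the 200 bases before the annotated start, read 5′ to 3′ on the coding strand, from the RefSeq promoter table of GRCm38.p6. Capitals mark 3 kinds of element on either strand. The CHR element was searched as TTTGAA and, as its other form, TTCGAA. The CCAAT box was searched by those letters, and the E2F site was searched as TTCCCGC and, as its other form, TTGGCGC. Top2a and Ube2c are shown for the mitotic group and Mcm5 and Mcm6 for the replication group. CHR elements and CCAAT boxes are known as sites of the DREAM and MMB complexes and of NF-Y at late cell cycle genes, and E2F sites as those of S phase genes.
Top2a, chr11:99024190-99024389, minus strand: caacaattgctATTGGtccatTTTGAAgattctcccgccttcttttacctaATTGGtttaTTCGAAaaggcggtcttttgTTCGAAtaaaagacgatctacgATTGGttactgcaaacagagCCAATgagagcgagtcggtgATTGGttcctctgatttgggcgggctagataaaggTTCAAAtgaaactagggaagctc
Ube2c, chr2:164769729-164769928, plus strand: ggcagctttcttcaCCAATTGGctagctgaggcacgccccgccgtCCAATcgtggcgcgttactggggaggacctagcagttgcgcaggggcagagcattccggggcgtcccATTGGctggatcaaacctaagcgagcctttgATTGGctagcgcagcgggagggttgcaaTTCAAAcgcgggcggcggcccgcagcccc
Mcm5, chr8:75109309-75109508, plus strand: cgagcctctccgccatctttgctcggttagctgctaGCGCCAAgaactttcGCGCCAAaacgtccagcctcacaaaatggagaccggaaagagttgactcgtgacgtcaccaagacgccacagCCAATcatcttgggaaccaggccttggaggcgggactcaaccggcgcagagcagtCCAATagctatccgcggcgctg
Mcm6, chr1:128359706-128359905, minus strand: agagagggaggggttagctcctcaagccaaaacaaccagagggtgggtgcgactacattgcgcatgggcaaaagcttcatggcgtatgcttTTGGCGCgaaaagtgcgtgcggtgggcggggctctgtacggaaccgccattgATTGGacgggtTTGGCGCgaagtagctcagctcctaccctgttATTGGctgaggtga
In the whole 300-base window Top2a held 4 CHR elements and 6 CCAAT boxes and no E2F site, and Ube2c held 1 and 6 and none. Mcm5 and Mcm6 each held 2 E2F sites and no CHR element, with 3 and 2 CCAAT boxes. A CCAAT box and an E2F site can overlap by shared letters. CCAAT boxes on opposite strands can overlap too, as 2 of the 6 counted in Ube2c do.

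For these shares 1 promoter was kept per gene symbol, which for genes with several may be an alternative promoter. Of the 27025 promoters kept, 19.4% held a CHR element, 37.8% a CCAAT box, 6.93% an E2F site and 7.57% a CHR element with a CCAAT box. Of the 29 spindle genes with a promoter in the table, 25 held a CHR element (86.2%) and 3 an E2F site (10.3%). Of 15 G2/M kinases and cyclins, 10 held a CHR element (66.7%), each together with a CCAAT box, and 2 an E2F site (13.3%). Of 19 replication fork genes, 2 held a CHR element (10.5%) and 13 an E2F site (68.4%), and of 13 licensing genes 4 (30.8%) and 7 (53.8%). Of the 12 genes with the smallest ratios of cycling over non-cycling cells, 11 had a promoter in the table. Among these, 3 held a CHR element (27.3%) and 1 an E2F site (9.09%). A match is a match of letters and no measurement of binding, and Birc5 and Nuf2 held none of these elements in their windows.

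Members ranged from S-leaning to G2/M-leaning. Phase balance was taken as the share of S phase UMIs among UMIs of 60 replication genes and 54 G2/M genes, without the genes of the rule. It cannot place a cell in G1. Members were chosen by Mki67, Top2a and Birc5 UMIs, so their spread also depends on the rule. Its median per cell was 43.7% in the library labelled siIRF5 and 45.1% in the library labelled control, with the 10th percentile at 17.5% and 25.0% and the 90th at 75.6% and 70.2%. Summed over members, S phase UMIs were 0.863 and 0.898 times the G2/M UMIs. Cells above the common median of 44.6% were 77 of 160 (48.1%, 40.2 to 56.2%) and 102 of 199 (51.3%, 44.1 to 58.4%), and after thinning 44.8% (35.6 to 54.3%) and 53.2% (45.5 to 60.8%). Among members with at most 1 UMI of B cell, macrophage and neutrophil markers, 39.7% of 58 and 56.8% of 88 were above their common median. No difference in phase balance between the libraries was detectable over all members.

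Median phase balance was also taken by subset. CD4 members had a median S phase share of 55.8% in the library labelled siIRF5 and 48.5% in the library labelled control. CD8 members had 47.1% and 44.7%, regulatory members 41.1% and 43.6%, and gamma delta members 40.8% and 39.9%. Members above the common median were 72.7% of CD4 members (49.8 to 89.3%) and 43.8% of gamma delta members (26.4 to 62.3%) in the library labelled siIRF5, and 55.6% (39.997 to 70.4%) and 43.3% (25.5 to 62.6%) in the library labelled control, with overlapping intervals. Members with no assigning transcript had medians of 37.7% and 51.8%. Members with Cd4 and Cd8 together had 25.2% over 7 cells and 34.0% over 6 cells, and all 7 in the library labelled siIRF5 and 1 of 6 in the library labelled control carried thymocyte markers. Stage and coreceptor pattern cannot be told apart in those 7. Single CD8 members ran from 6.86% to 87.0% and from 18.4% to 80.0%.

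**Figure D3:**
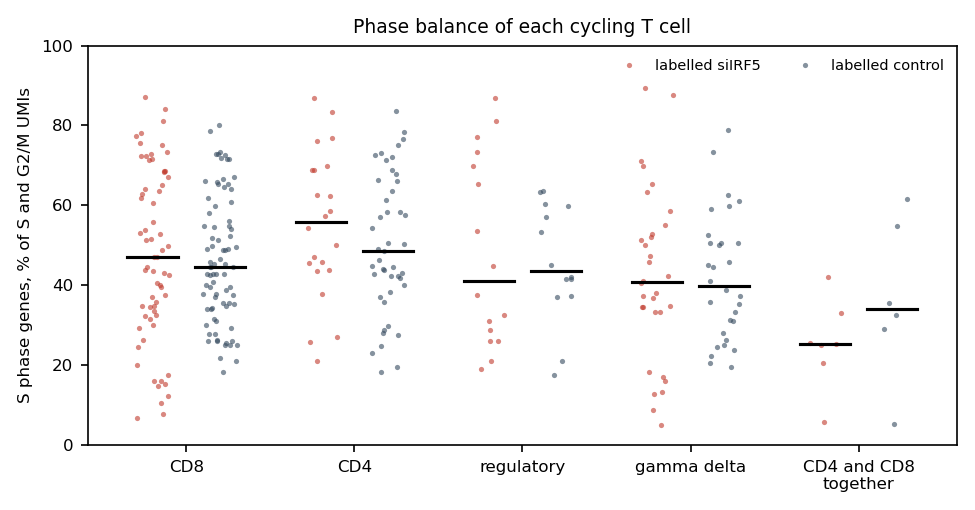
Phase balance of each cycling T cell. The y axis is the share of S phase UMIs among the S and G2/M UMIs of a cell, points are cells (red, library labelled siIRF5; dark, library labelled control), and black lines are medians per subset and library. Medians of the first 4 subsets lie between 39.9% and 55.8%, and cells with Cd4 and Cd8 together lie lower, at medians of 25.2% and 34.0%.

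Between the libraries, most genes of cycling T cells were at similar levels. Ratios from here on are log2 of the CPM in members of the library labelled siIRF5 over that in members of the library labelled control. The median over the 9771 genes with at least 20 UMIs in both libraries together was 0.06. Of these genes 10.8% were at least 1.5-fold higher and 5.64% at least 1.5-fold lower in the library labelled siIRF5. Of the 6456 genes with at least 50 UMIs in 1 library, 327 were higher (5.07%) and 198 lower (3.07%). These are sizes in 2 libraries and not counts of changed genes.

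The genes at the ends of this range were often carried by few cells. Syt13 and Arpp21, with 59 and 56 UMIs in the library labelled siIRF5 and 14 and 21 in the library labelled control, lay wholly in the members with thymocyte markers (Arpp21 is 1 of those markers). Mmp8, Lcn2, Ngp, Ifitm6 and S100a9, genes of neutrophil granules and cytosol, were lower by log2 ratios between -2.81 and -1.58. Members with other-lineage markers held 94.9% and 98.5% of Lcn2 UMIs and 94.6% and 98.7% of S100a9 UMIs. Without those members S100a9 was 0.68 and Ifitm6 2.34, the opposite direction, and Lcn2 was -0.17. The sums of these neutrophil genes thus came mainly from a few members.

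The remaining genes at the ends differed in how many members carried them. Zbtb16, the transcription factor PLZF of innate-like T cells, had 124 CPM (108 to 142) in the library labelled siIRF5 and 35.0 CPM (28.2 to 43.0) in that labelled control. Its log2 ratio was 1.82 (1.46 to 2.20), beside 0.12 in non-cycling T cells. Zbtb16 was seen in 25 and 20 members, and 18 and 14 of these were gamma delta members. Tgfbr3, the betaglycan coreceptor for TGF-beta, had 55.7 CPM (45.2 to 67.9) and 16.3 CPM (11.8 to 22.1), a ratio of 1.77 (1.23 to 2.33), with 0.13 in non-cycling cells. Krt83, a hair keratin gene seen here in T cells, had 35.6 and 7.78 CPM, and Klra7, a receptor of the Ly49 family with near-identical relatives, had 39.0 and 6.61 CPM in 11 and 4 cells. Zbtb16 and Tgfbr3 were thus higher in members of the library labelled siIRF5 while non-cycling T cells were close to even. Rap1gap2, which turns off the small GTPase Rap1, was lower, with 9.76 CPM (5.68 to 15.6) in 11 members and 29.6 CPM (23.3 to 37.0) in 47 members. Fcgrt, the neonatal Fc receptor, was seen in 5 and 33 members, Lcn4, a lipocalin gene, in 7 and 38, and Mt2, a metallothionein, in 9 and 44. These last genes had under 20 UMIs in the library labelled siIRF5, and their ratios without other-lineage members were -3.08 for Fcgrt, -2.55 for Lcn4 and -1.72 for Mt2.

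**Figure D4:**
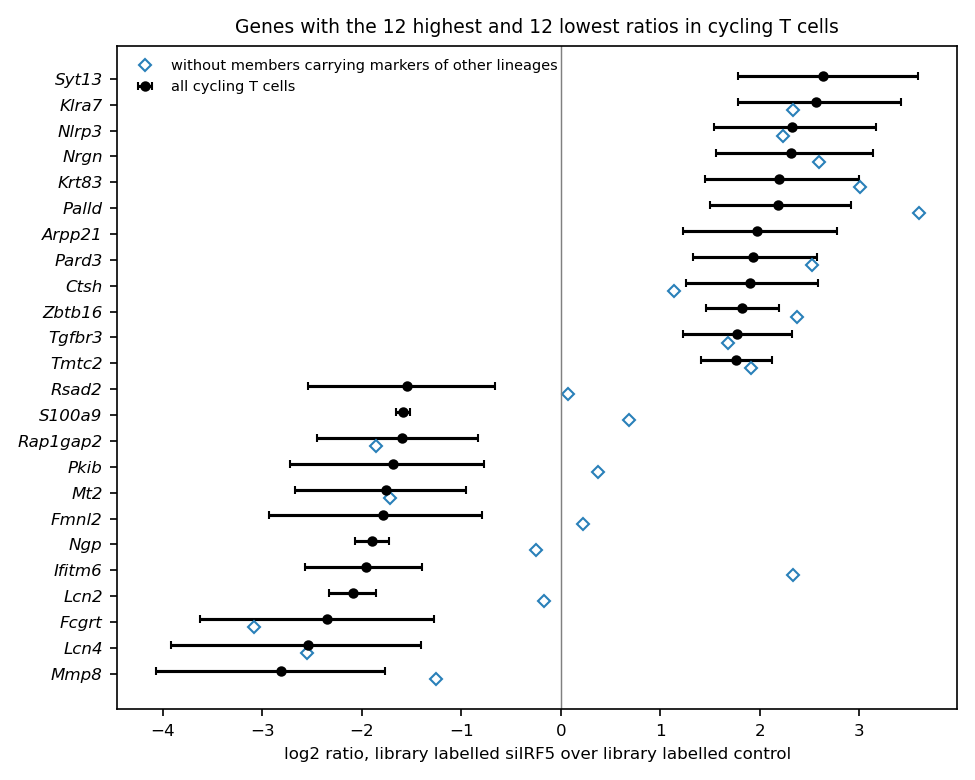
The 12 highest and 12 lowest log2 ratios between libraries in cycling T cells, among genes with at least 50 UMIs in 1 library. Black points with exact 95% intervals (counting error only) are ratios over the 160 and 199 members, and open diamonds are ratios without members that carry markers of other lineages, drawn where they could be computed. For S100a9, Ifitm6, Fmnl2, Pkib and Rsad2 the diamond lies on the other side of 0.

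The medians of the division lists stayed within 1.5-fold between the libraries. Medians were 0.01 for 34 spindle genes, -0.26 for 20 G2/M kinases and cyclins and -0.05 for 18 licensing genes. They were -0.15 for 24 replication fork genes and -0.04 for 18 nucleotide synthesis genes. Of these 114 genes 0 were at least 1.5-fold higher and 5 at least 1.5-fold lower, beside 10.8% and 5.64% of all genes. Over the main rule and its alternatives the licensing median ran from -0.38 to -0.01 and the fork median from -0.43 to -0.09. The licensing and fork minima came with at most 1 UMI of B cell, macrophage and neutrophil markers. The median of G2/M kinases and cyclins ran from -0.31 to 0.01, and that of spindle genes from -0.03 to 0.07. Single genes moved apart within the programme. Pcna, the sliding clamp, had 464 CPM in the library labelled siIRF5 and 358 CPM in the library labelled control, a ratio of 0.37 (0.24 to 0.51). Ccna2 had 161 CPM (143 to 181) and 225 CPM (207 to 244), a ratio of -0.48 (-0.69 to -0.27). Pclaf, the PCNA-associated factor, had 691 CPM (653 to 731) and 992 CPM (953 to 1031). Hist1h2ap, a histone H2A gene with near-identical copies, had 156 and 77.4 CPM, a ratio of 1.01 (0.74 to 1.28).

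The last 3 differences had the same sign in each subset. Pclaf had 754 CPM in the library labelled siIRF5 and 1028 CPM in the library labelled control in CD8 members, 846 and 1055 CPM in CD4 members, 523 and 1351 CPM in regulatory members and 557 and 763 CPM in gamma delta members. Ccna2 was lower in the library labelled siIRF5 in the same 4 subsets, by log2 ratios between -1.07 in CD4 members and -0.35 in gamma delta members, and the intervals in gamma delta (-0.86 to 0.15) and regulatory members (-1.22 to 0.05) held 0. Hist1h2ap was higher in all 4, with ratios of 1.21 in CD8, 1.02 in CD4, 1.33 in regulatory and 0.68 (-0.03 to 1.41) in gamma delta members. Pclaf was therefore lower in all 4 subsets, with intervals that excluded 0.

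Cytotoxic genes split. Of 20 measured, 3 were at least 1.5-fold higher and 6 at least 1.5-fold lower, beside 10.8% and 5.64% of all genes, and the list median was 0.02, with the alternatives between -0.40 and 0.12. Gzma, the tryptase granzyme A (ENSMUSG00000023132, chr13:113093825-113100981, minus strand, GRCm38), had 307 CPM (281 to 334) in 34 members of the library labelled siIRF5 and 738 CPM (705 to 772) in 69 members of the library labelled control, a ratio of -1.27 (-1.41 to -1.13). In non-cycling T cells the Gzma ratio was -0.19. Serpinb6b and Serpinb9, which shield cells from granzymes, had ratios of -1.08 and -0.76, against 0.01 and -0.25 in non-cycling cells, and Klrg1, a marker of terminal effectors, had -1.05 (-1.55 to -0.57) against 0.99. Gzmb had 537 CPM (503 to 573) and 396 CPM (372 to 421), but 1 CD8 cell of the library labelled siIRF5 held 28.8% of its UMIs. Without that cell Gzmb had 388 and 396 CPM, a ratio of -0.03 (-0.17 to 0.12). The library labelled control kept its own cell with most Gzmb UMIs in this ratio, so the removal was on 1 side only. No direction for Gzmb in members is drawn from these sums. In non-cycling T cells Gzmb had 173 and 85.8 CPM.

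By subset, Gzma had 472 CPM in 21 of 65 CD8 members of the library labelled siIRF5 and 818 CPM in 43 of 80 of the library labelled control. In gamma delta members Gzma had 420 CPM in 6 of 32 cells and 2671 CPM in 11 of 30 cells. The Gzma sums were thus lower in the library labelled siIRF5 in each of these subsets, with few gamma delta cells behind them. Gamma delta members also had less Ccl5, with 2028 and 5244 CPM, and less Nkg7, a granule protein, with 528 and 1136 CPM. The part of single cells in the Gzma, Ccl5 and Nkg7 sums is not given here. Gzmb by subset rested on single cells. CD8 members had 947 and 716 CPM of Gzmb, and 622 and 716 CPM without the 1 cell of the library labelled siIRF5 with 270 of its UMIs. Gamma delta members had 258 and 651 CPM, and 258 and 285 CPM without the 1 cell of the library labelled control with 116 of 199 UMIs. No direction for Gzmb is drawn within these subsets.

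Some receptors of chronically or recently stimulated T cells were higher. Pdcd1, which encodes the inhibitory receptor PD-1 (chr1:94038305-94052553, minus strand), had 127 CPM (111 to 145) in 67 members of the library labelled siIRF5 and 47.8 CPM (39.8 to 57.1) in 50 members of the library labelled control, a ratio of 1.41 (1.08 to 1.74), with 0.49 in non-cycling cells. The Pdcd1 difference was widest in CD8 members, at 142 and 37.3 CPM, and CD4 members were level at 51.1 and 50.1 CPM. Lag3, another inhibitory receptor, had 14 UMIs and 6 UMIs in CD8 members. The checkpoint list as a whole had a median of 0.19, with 3 of 14 genes at least 1.5-fold higher and 1 lower. The costimulation and activation list had 0.10, with 3 of 19 higher and 4 lower. Of all genes 10.8% were higher and 5.64% lower to that extent. Ctla4, an inhibitory receptor, was lower in CD8 and CD4 members, with ratios of -0.46 (-0.77 to -0.17) and -0.80 (-1.28 to -0.36). Il2ra, the high-affinity chain of the interleukin 2 receptor, had 69.5 and 33.5 CPM, a ratio of 1.05 (0.64 to 1.47), and Tnfrsf9 (4-1BB) had 253 and 161 CPM, a ratio of 0.65 (0.46 to 0.85) against -0.18 in non-cycling cells. Cd40lg and Tnfsf8, ligands of helper cells, were lower, with ratios of -0.75 and -0.88.

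**Figure D5:**
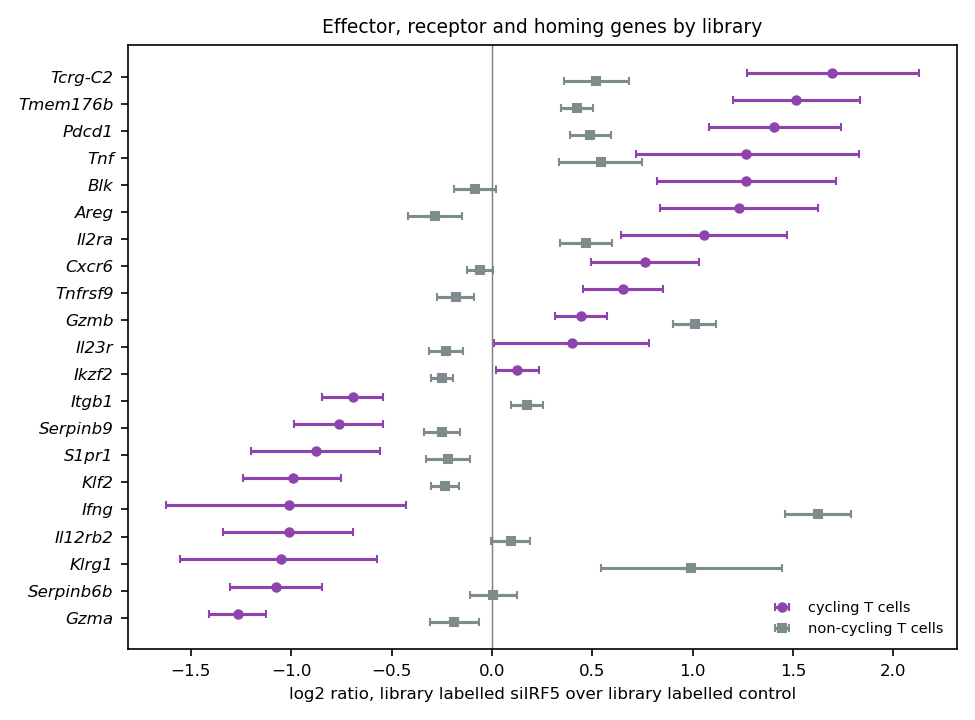
Effector, receptor and homing genes by library. Points are log2 ratios of the library labelled siIRF5 over the library labelled control in cycling T cells (purple circles) and in non-cycling T cells (grey squares), with exact 95% intervals that cover counting error only. Gzma, Klrg1 and Serpinb6b are below 0 in cycling cells, at -1.27, -1.05 and -1.08, and Pdcd1, Tmem176b and Tcrg-C2 are above it, at 1.41, 1.52 and 1.69.

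Genes of regulatory cells were higher, with a list median of 0.56 and 8 of 16 genes at least 1.5-fold higher and 0 lower. Of all genes, 10.8% were higher and 5.64% lower by that measure. Foxp3, the factor that defines these cells, had 34 UMIs in 16 members of the library labelled siIRF5 and 29 UMIs in 14 members of the library labelled control, a ratio of 0.79 (0.03 to 1.56). With equal subset weights in both libraries the list median was 0.33. Regulatory members were chosen by a Foxp3 UMI, so its level within them is no result. Within regulatory members, Ctla4 had 1331 and 1327 CPM, and Ikzf2 (Helios) 2721 and 2616 CPM, both level. Tnfrsf9 remained higher in them, with 855 and 563 CPM, and so did Areg (amphiregulin, an epithelial growth factor made by tissue regulatory cells), with 359 CPM in 10 cells and 153 CPM in 8 cells. Regulatory cells were 10.0% and 7.04% of members, and 4.31% (1.41 to 9.77%) and 4.62% (2.02 to 8.91%) after thinning, the other direction, and fewer cells of a type and less RNA per cell cannot be told apart in the pooled sums.

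Type 17 genes were higher too. The 11 type 17 genes had a median of 0.81, and of -0.07 in non-cycling T cells. In members 6 were at least 1.5-fold higher and 0 lower, beside 10.8% and 5.64% of all genes. The type 17 median was 0.39 with each cell weighted equally and 1.22 without members that carry other-lineage markers. Of 5 gamma delta receptor genes 2 were at least 1.5-fold higher and 0 lower, with a median of 0.56, which was 0.05 with each cell weighted equally and 0.89 without those members. Tmem176b and Tmem176a, membrane proteins of type 17 cells, had 142 and 49.8 CPM, and 144 and 58.3 CPM, with ratios of 1.52 and 1.30. Blk, a Src family kinase needed by interleukin 17 gamma delta cells, had 65.4 and 27.2 CPM, a ratio of 1.26 (0.82 to 1.72). Il17a itself had 38.5 and 42.0 CPM and so did not follow them. Tcrg-C2 had 85.5 CPM (72.3 to 100) and 26.5 CPM (20.5 to 33.5), Trdc 288 and 185 CPM, and Tcrg-C4 31.0 and 35.0 CPM. The Tcrg constant genes are close copies, so reads may be split between them. Within gamma delta members Zbtb16 had 477 and 209 CPM, Tmem176b 379 and 196 CPM and Blk 306 and 180 CPM, while Trdc had 1060 and 1326 CPM and Il23r 201 and 295 CPM. Trdc was also found in 12 of 65 CD8 members of the library labelled siIRF5, with 161 UMIs, and in 4 of 80 of the library labelled control, with 20 UMIs. Members with at least 2 UMIs of gamma delta constant genes were 36.9% (29.4 to 44.9%) and 23.6% (17.9 to 30.1%), with overlapping intervals.

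Homing and retention genes moved apart. Klf2, which drives exit from tissue, had 109 CPM in 77 members of the library labelled siIRF5 and 217 CPM in 133 members of the library labelled control, a ratio of -0.99 (-1.24 to -0.75). S1pr1, its target and the receptor for exit along sphingosine 1-phosphate, had 64.3 and 118 CPM, a ratio of -0.87 (-1.20 to -0.56). In non-cycling T cells these ratios were -0.23 and -0.22. Klf2 was lower in CD8, regulatory and gamma delta members, with ratios of -1.03, -2.29 and -1.36, and the CD4 interval (-0.97 to 0.48) held 0. Cxcr6 and Itga1, of tissue-resident cells, were higher, with 143 and 84.4 CPM and 37.3 and 17.9 CPM, and Itgb1, an integrin of effector cells, was lower, with 293 and 474 CPM. Of 18 measured residency and homing genes, 4 were at least 1.5-fold higher and 2 lower, beside 10.8% and 5.64% of all genes. The list median was -0.05.

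Cytokine genes were few in UMIs. Tnf had 75 UMIs and 43.1 CPM in the library labelled siIRF5 and 46 UMIs and 17.9 CPM in the library labelled control. Ifng had 33 and 98 UMIs, 18.9 and 38.1 CPM, a ratio of -1.01 (-1.62 to -0.43), and Il12rb2, the interleukin 12 receptor chain of type 1 cells, had 62.0 and 125 CPM. Areg had 82.1 and 35.0 CPM. Tnf and Ifng, both type 1 cytokines, thus ran in opposite directions, and the type 1 list had a median of -0.01.

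Some apoptosis genes were higher, with 5 of 19 genes of that list at least 1.5-fold higher, 0 lower and a median of 0.11. The shares over all genes were 10.8% higher and 5.64% lower. Bcl2 had 126 and 78.2 CPM, Bcl2a1d 229 and 143 CPM and Bcl2l1 (Bcl-xL) 78.6 and 50.6 CPM, all of which restrain apoptosis, and Bcl2l11 (Bim), which promotes it, had 156 and 92.97 CPM. These genes on both sides of the pathway were higher together. Glucose transporters Slc2a1 and Slc2a3 were lower, with 21.2 and 33.5 CPM and 21.2 and 37.3 CPM, and the 17 glycolysis genes had a median of -0.19. Ribosome biogenesis had a median of -0.23 and oxidative phosphorylation 0.01, with 0 genes of either list past 1.5-fold. Nr1d2 and Arntl of the circadian clock had ratios of 0.72 and 0.56. Of 10 clock genes 2 were at least 1.5-fold higher, Nr1d2 among them, while Arntl was just short of that cut. MHC class I genes H2-K1 and H2-D1 had 2938 and 2281 CPM, and 1565 and 1233 CPM, ratios of 0.37 and 0.34.

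Interferon regulatory factors other than Irf5 were level or lower. Irf7, an amplifier of type I interferon, had 22.96 and 40.8 CPM, a ratio of -0.83 (-1.39 to -0.29), and Irf8 had 29.3 and 52.1 CPM, also -0.83 (-1.33 to -0.36). Irf2 had 108 and 102 CPM. Of 23 type I interferon genes, 1 was at least 1.5-fold higher and 4 at least 1.5-fold lower, with a median of -0.10 beside -0.43 in non-cycling T cells; without members of other lineages it was 0.13. Rsad2 (viperin) was the lowest of them at -1.55, with 58.9% of its UMIs in the library labelled control in 1 cell. Of 21 interferon gamma genes, with a median of 0.18, 4 were at least 1.5-fold higher and 0 lower. Over all genes the shares beside these interferon counts were 10.8% higher and 5.64% lower.

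Cycling cells with 0 CD3 UMIs, which hold plasma, myeloid and other dividing cells, were 442 in the library labelled siIRF5 and 686 in the library labelled control. Their division lists were lower in CPM than those of cycling T cells: the replication fork list summed to 1498 and 2032 CPM in them, against 2851 and 2936 CPM in members, and the spindle list to 3393 and 4082 CPM against 5663 and 5577 CPM. In these cells each of the 2 lists was lower in the library labelled siIRF5, whereas in members the fork list ratio was -0.04 (-0.09 to 0.01) and the spindle list ratio 0.02 (-0.01 to 0.06). The plasma cell list made up 37755 and 82023 CPM of these cells, and its part in those levels was not tested.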

How the data were processed

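Single-cell 3′ RNA libraries of aortic CD45+ leukocytes were analysed, 1 per group. The deposited values are raw UMI counts per gene and barcode; the file headers name Cell Ranger 7.2.0, whereas the submitters' processing notes list Cell Ranger 3.1.0, Seurat 4.4.0 and mm10. Per the labels' protocols a 10x Genomics 3′ kit was used, with a TRIzol lysis step also described. Of 13155 and 12516 deposited barcodes in the libraries labelled siIRF5 and control, 12466 and 12038 had at least 500 genes and at most 15% mitochondrial UMIs, with 77200450 and 88007779 UMIs.

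Members were chosen by the marker rule, and their counts were added up within each library and converted to CPM (numpy 2.4.6, scipy 1.17.1, pandas 2.3.3). Sums have exact Poisson, shares exact Clopper-Pearson and ratios exact conditional binomial 95% intervals, which cover counting error and nothing else. No test was made with 1 library per group and no p-value, and the computation was tested on simulated data. Thinning drew 3000 UMIs per cell without replacement. Doublets were called with Scrublet in scanpy 1.11.5, which marked 684 (5.20%) and 533 (4.26%) barcodes, of which 3 and 6 were members; they were kept in, and removed as an alternative.

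Named genes were the 12 highest and 12 lowest ratios among genes with at least 50 UMIs in 1 library and seen in at least 10 members, without mitochondrial, ribosomal, haemoglobin, sex-linked, predicted and receptor segment genes, the like for cycling over non-cycling cells, and up to 4 genes per list and ratio. Genes given by subset, the markers of the rule and Lag3 were named beside these. Members, the 34 gene lists and the named-gene rule were chosen with earlier results of these data known. Gene names came from the files, and coordinates from a GRCm38 annotation that held 32158 of 32285 gene IDs. The files do not give the number of animals, so the spread between animals is unknown.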

Additional observations from a re-analysis of the deposited data

Results flagged for a closer look

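For 3 genes the ratio between the libraries (siIRF5 over control) had opposite signs in cycling and non-cycling T cells, and the difference was not tested. Ifng had a log2 ratio of -1.01 in cycling and 1.62 in non-cycling T cells, and 42.5% of its non-cycling UMIs in the library labelled siIRF5 lay in 1 cell. Klrg1 had -1.05 in cycling and 0.99 in non-cycling T cells. Pkib had -1.69 in cycling and 0.78 in non-cycling T cells, and its sign in cycling cells changed without members that carry markers of other lineages and without the 1 cell of the library labelled control that held 40 of its 57 UMIs.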

How the results depend on the processing

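No paired analysis was possible because each group has 1 library. Alternatives changed the rule, depth, scaling or abundance minimum, and leaving out thymocyte-marker or other-lineage members, T cells under 3000 UMIs or the 1 cell with most UMIs of a gene was added after seeing the data. With at most 1 UMI of B cell, macrophage and neutrophil markers, 58 and 88 members were left in the libraries labelled siIRF5 and control. They were 0.465% and 0.731% of kept barcodes and 4.06% and 3.55% of T cells. In the library labelled siIRF5 32.8% were CD8 and 39.7% S-leaning, against 40.9% and 56.8% in the library labelled control. There 169 genes were at least 1.5-fold higher between libraries, 819 higher and 323 lower in cycling over non-cycling cells of the library labelled siIRF5, and 935 and 398 in those of the library labelled control. With at least 1000 genes, members were 1.60% of kept barcodes in the library labelled siIRF5, and without other-lineage members 1.07%. After thinning to 3000 UMIs, CD8 members were 31.9%, CD4 members 7.76% and regulatory members 4.31% in the library labelled siIRF5, and CD4 members 8.09% and cycling cells 6.38% of T cells in the library labelled control. With at least 3000 UMIs and no thinning, cycling cells were 7.77% and 7.23% of T cells. Between libraries, 764 genes were higher and 452 lower with at least 20 UMIs in 1 library, and 157 and 84 with at least 100. Centring on the median gave 929 genes lower in cycling cells of the library labelled siIRF5. Changes of sign were counted only for genes whose main ratio was past 1.5-fold with a counting interval of 1 sign. Among these, ratios between libraries changed sign with at most 1 foreign UMI for Ctsh (-0.90), Hspa1a (1.52), Ier3 (-2.26), Ngp (0.060), Nrgn (-0.79), Plk1 (0.21), S100a9 (0.15) and Tnfsf8 (0.35). Without other-lineage members they did so for Fmnl2 (0.22), Ier3 (-0.59), Ifitm6 (2.34), Pkib (0.37), Rsad2 (0.072) and S100a9 (0.68), with at least 3 proliferation UMIs for Pkib (0.20) and with equal subset weights for Foxp3 (-0.061), whose UMIs define a subset. Without the 1 cell of the library labelled control with most of its UMIs, Pkib was 0.05 and Rsad2 -0.27. In cycling over non-cycling cells of the library labelled siIRF5, Ikzf2 was -0.029 with equal subset weights and Rtp4 0.0098 with at most 1 foreign UMI. The cause of these changes was not tested. Over all named genes and alternatives, 16 ratios between libraries changed sign under that limit. The other ratios were compared with the counting interval alone, whatever their sign, and 2821 stayed within it and 166 moved beyond it. Depth limits genes with few UMIs, and with 1 library per group a difference between preparations, animals or sequencing runs cannot be told apart from one between treatments.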
